A study of Mus musculus with 6 samples.

Results

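The 32 genes described here encode the folding machinery of the endoplasmic reticulum (ER) and the unfolded protein response that regulates it. They were taken by gene symbol from a list, drawn up by known function, of stress sensors, chaperones, protein disulfide isomerases and components of ER-associated degradation. No measured value was used in the rule, but earlier results of these data were known when the genes were chosen. All 32 were found among the 25124 gene rows of the expression table, and all 32 were among the 12633 genes tested.

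The libraries were made from sorted macrophages of the colonic lamina propria, the connective tissue under the gut epithelium, in 8-week-old C57BL/6 mice. One group (3 libraries) came from transgenic mice that overexpress E4BP4, and the other (3 libraries) from wild type mice. E4BP4 is a basic leucine zipper transcription factor that mostly represses transcription and is encoded by Nfil3. Both groups carried the same colitis treatment: they drank 2.0% dextran sulfate sodium, which damages the lining of the colon, for 7 days, recovered on untreated water for 7 days and were killed on day 14. All 6 libraries had this treatment, so a response to colitis cannot be measured here. Whether the groups differed in injury or recovery was not tested. The labels call the overexpression specific to macrophages but give neither the promoter that drives the transgene nor the species of its coding sequence. Separate mice for each library are not stated, so the spread behind every p-value is that between libraries and may be technical.

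Proteins that enter the secretory pathway fold in the ER lumen, where the Hsp70 chaperone BiP (Hspa5), the Hsp90 chaperone Grp94 (Hsp90b1), the lectin chaperones calnexin and calreticulin, and the disulfide isomerases act on them. When unfolded proteins accumulate, the sensors IRE1 (Ern1), ATF6 and PERK (Eif2ak3) signal to the nucleus. ATF6 and the spliced form of XBP1 raise transcription of chaperone and degradation genes, while PERK slows translation and leads to ATF4. In macrophages the IRE1 and XBP1 arm is also known to take part in inflammatory gene expression downstream of Toll-like receptors.

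The expression values are TPM, in which reads are scaled for transcript length and sequencing depth, and genes were compared with limma on log2(TPM + 1). A gene was called at a Benjamini-Hochberg adjusted p below 0.05 over all tested genes. Nfil3, whose product is the overexpressed factor, was at 133, 134 and 141 TPM in transgenic libraries and 117, 119.9 and 119 TPM in wild type libraries, with no overlap (log2 fold change 0.19 ± 0.0286 SE, limma adjusted p = 0.00261). Libraries held 13.97 M to 15.06 M reads in genes (M, 1e6). Across all tested genes, 21.9% were called, 13.2% lower and 8.71% higher in transgenic libraries (limma). With upper-quartile scaling the share of calls that were higher was 52.0%, against 39.8% on the TPM scale. Pearson correlations of log2(TPM + 1) between libraries, across the tested genes, were 0.989 to 0.990 within transgenic, 0.988 to 0.989 within wild type and 0.978 to 0.980 between groups. The genotype field of transgenic replicates 2 and 3 ends in another digit than their titles, which name E4BP4, and the titles were followed.

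Most of the ER folding genes were lower in transgenic macrophages, by small and closely repeated amounts. Of the 32, 18 fell, 1 rose and 13 were not called (limma), so 56.25% fell beside the 13.2% of all tested genes given above. The gene that rose was Herpud1, a membrane protein of ER-associated degradation. The fall was 4.83% for Hspa5, the smallest among the genes called, and 28.4% for Hyou1, 28.5% for Sdf2l1 and 25.6% for Creld2.

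The median log2 fold change of the 32 genes was -0.16 (quartiles -0.26 and -0.08), beside -0.01 (quartiles -0.14 and 0.12) over all tested genes. In TPM, the 3 transgenic libraries lay wholly below the 3 wild type libraries for 21 of the 32 genes, against 22.3% of all tested genes, and wholly above them for 3 (Herpud1, Pdia5 and Eif2ak3), against 17.1%. Fold changes were below 0 for 26 genes and above 0 for 6, with Os9 at 0.01 instead of -0.02 under upper-quartile scaling. A fall of at least 20% that was also called was seen in 7 of the 32, beside 6.53% of all tested genes, and these were Hyou1, Sdf2l1, Creld2, Pdia6, Pdia4, P4hb and Dnajb11.

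The 32 genes together held 4944, 4982 and 4941 TPM in transgenic libraries and 5615, 5617 and 5585 TPM in wild type libraries. The summed level was thus 11.6% lower in transgenic libraries, at 4956 ± 22.8 TPM in transgenic and 5606 ± 17.9 TPM in wild type libraries (SD, n = 3 each). Hspa5, Calr, Hsp90b1, Pdia3 and Manf supplied 58.6% to 59.4% of the sum in transgenic and 57.8% to 58.3% in wild type libraries. In bulk libraries, fewer cells of a type and less RNA per cell cannot be told apart.

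**Figure D1:**
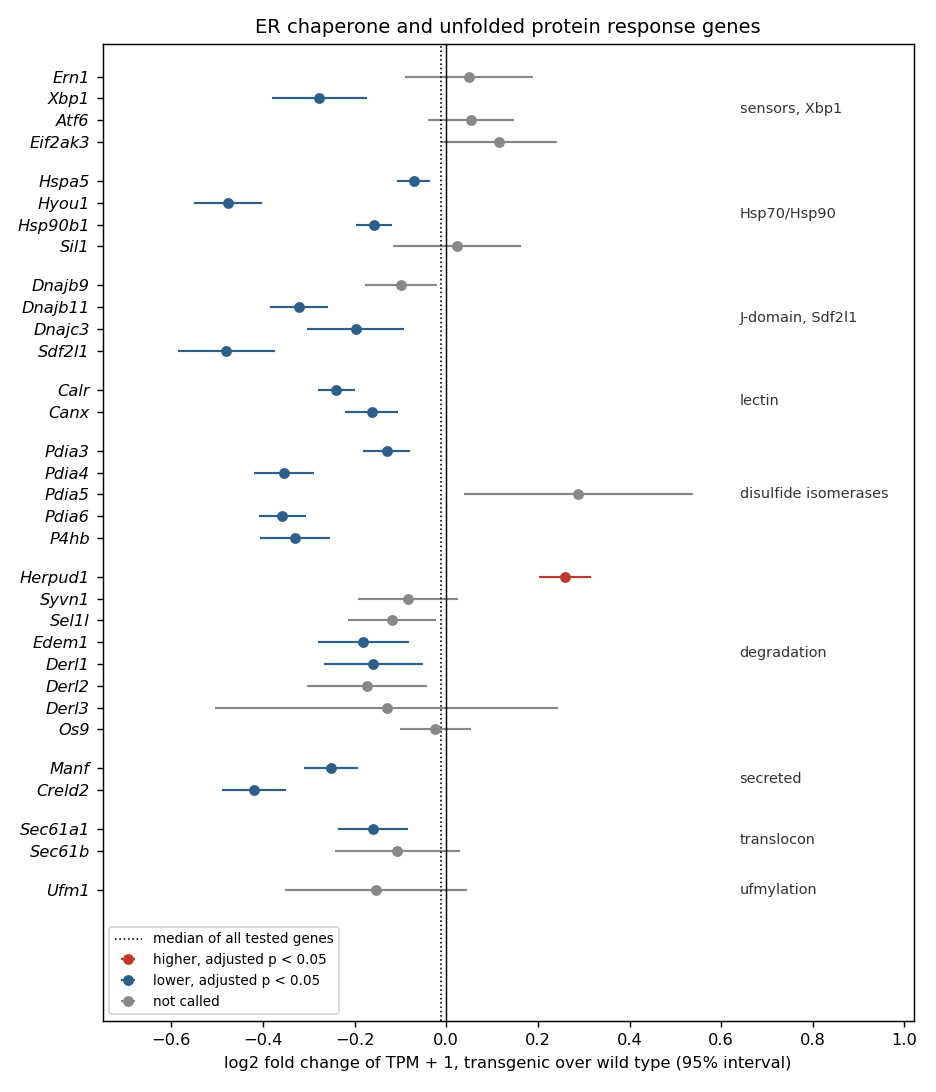
Log2 fold change of TPM + 1 (transgenic over wild type, x axis) with its 95% interval for the 32 genes, grouped by role, with colours for the limma call and a dotted line at the median of all tested genes (-0.01). Calls to the left of 0 number 18, and Herpud1 at 0.26 is the single call to the right.

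The ER stress response element, ERSE, is the promoter sequence through which ATF6 and XBP1 are known to act on chaperone genes, together with NF-Y at its CCAAT part. It reads CCAAT, any 9 bases, then CCACG; a shorter form, ERSE-II, reads ATTGG, any base, then CCACG. RefSeq promoter windows (GRCm38.p6, the patch release of the mm10 build the files use) run from 250 bases before the transcription start to 50 after it. Such a window was used for 25 of the 32 genes, those with a start within 500 bases of the start in the files. The windows of Atf6, Hyou1, Sil1, Derl1, Manf, Sec61a1 and Syvn1 were not used here.

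ERSE was found, on either strand, in 8 of the 25 windows (32%), beside 25 of all 17934 windows (0.139%). ERSE-II was in 2 of the 25 (8%), beside 0.0446% of all windows. The matches are printed as a description of 10 of the genes. The list holds chaperone genes on which ATF6 and XBP1 are known to act through ERSE, so the higher shares are no independent finding. Each is written 5′ to 3′ on the strand that holds it, with the CCAAT or ATTGG part and the CCACG part in capitals and, in ERSE, the bases between them in lower case.
Hspa5, ERSE at chr2:34772025-34772043 (+ strand): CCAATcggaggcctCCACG
Hsp90b1 (farther from the start), ERSE at chr10:86705638-86705656 (- strand): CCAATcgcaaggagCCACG
Hsp90b1 (nearer to the start), ERSE at chr10:86705533-86705551 (+ strand): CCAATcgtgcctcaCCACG
Calr, ERSE at chr8:84847075-84847093 (+ strand): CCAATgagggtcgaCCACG
Canx, ERSE at chr11:50325800-50325818 (- strand): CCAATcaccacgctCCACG
Dnajc3, ERSE at chr14:118937827-118937845 (+ strand): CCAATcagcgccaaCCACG
Pdia6, ERSE at chr12:17266491-17266509 (+ strand): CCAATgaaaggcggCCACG
Creld2, ERSE at chr15:88819520-88819538 (- strand): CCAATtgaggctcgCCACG
Derl3, ERSE at chr10:75893242-75893260 (- strand): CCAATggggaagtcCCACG
Dnajb11, ERSE-II at chr16:22857852-22857862 (+ strand): ATTGGCCCACG
Herpud1, ERSE-II at chr8:94386377-94386387 (+ strand): ATTGGGCCACG

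Relative to the first transcribed base, counted as 0, the ERSE matches began between -212 and -65, and Herpud1's ERSE-II began at -52. Dnajb11's ERSE-II lay downstream of the start, from 7 to 17. The spacer differs in every ERSE printed above, and the capitals are fixed by the search. Hsp90b1 had 2 matches, on opposite strands. Only exact matches were counted, so a window without a match may still hold a near copy of either element, and a window with a match may hold further near copies.

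Genes with either element moved in both directions. Of the 10, 8 fell, Herpud1 rose and Derl3 was not called, with a median log2 fold change of -0.18. Of the 15 windows with neither, 6 belonged to genes that fell and 9 to genes not called, with a median of -0.13. The difference between those groups was not tested, and a match is a description and not a site shown to be used.

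The 250 bases before the start are printed for Hspa5, which fell, and Herpud1, which rose, because both genes are known targets of the same response. Capitals mark the CCAAT and CCACG parts of ERSE in Hspa5 and the whole of ERSE-II in Herpud1, and both windows are on the + strand.
Hspa5, chr2:34771840-34772089: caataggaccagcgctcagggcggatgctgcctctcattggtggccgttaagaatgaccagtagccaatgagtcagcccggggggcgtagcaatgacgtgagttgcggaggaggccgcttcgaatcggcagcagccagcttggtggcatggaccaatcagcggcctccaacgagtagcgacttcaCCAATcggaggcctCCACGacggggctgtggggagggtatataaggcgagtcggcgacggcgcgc
Herpud1, chr8:94386179-94386428: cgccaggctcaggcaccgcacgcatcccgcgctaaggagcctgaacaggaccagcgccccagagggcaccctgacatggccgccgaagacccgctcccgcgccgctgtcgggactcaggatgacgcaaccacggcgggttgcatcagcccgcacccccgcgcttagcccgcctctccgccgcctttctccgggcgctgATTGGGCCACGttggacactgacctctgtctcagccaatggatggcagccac

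Shorter motifs were also searched on both strands. CCACG was in 84% of the 25 windows and CCAAT in 80%, beside 37.6% and 38.6% of all windows, and these counts include copies inside ERSE. The ATF6 and XBP1 core TGACGTGG was in 0 of the 25, beside 0.719% of all windows. Of 2 sequences of the kind that E4BP4 is known to bind, TTATGTAA was in the window of Sec61b alone (0.853% of all windows) and TTACGTAA in that of Os9 alone (0.112%). Neither Sec61b nor Os9 was called.

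**Figure D2:**
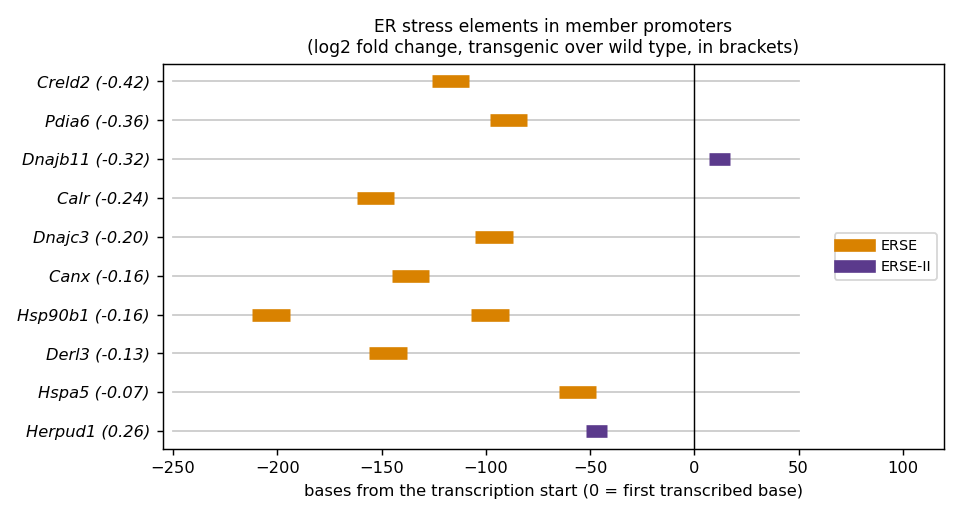
Position of ERSE (orange) and ERSE-II (purple) matches in the promoter windows of 10 genes, in bases from the first transcribed base at 0 (x axis), with each gene's log2 fold change in brackets. The single gene that rose, Herpud1 (0.26), has ERSE-II as does Dnajb11 (-0.32), which fell.

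Among the sensors and their transcription factor, Xbp1 fell and the 3 sensors were not called. Xbp1 was at 103, 97.6 and 92.2 TPM in transgenic libraries and 122, 118 and 114 TPM in wild type libraries. The transgenic libraries were all lower than the wild type ones (log2 fold change -0.28 ± 0.0449 SE, 95% interval -0.38 to -0.17, limma adjusted p = 0.00384). Its row is 1 transcript (NM_001271730, chromosome 11 from 5520641 to 5525993, + strand), so the spliced form that encodes the active factor and the unspliced form are not told apart.

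Ern1, which encodes the kinase and RNase that splices Xbp1 mRNA, was at 15.6, 16.6 and 14.9 TPM in transgenic and 15.9, 14.9 and 14.6 TPM in wild type libraries (95% interval of the log2 fold change -0.09 to 0.19). Atf6, the sensor cleaved in the Golgi to release a transcription factor, was at 27.9, 29.4 and 29.0 TPM in transgenic and 27.8, 27.9 and 27.3 TPM in wild type libraries (interval -0.04 to 0.15). The groups overlapped for both genes. Eif2ak3, which encodes PERK, was at 13.0, 12.6 and 12.3 TPM in transgenic and 11.6, 11.8 and 11.4 TPM in wild type libraries. Its groups did not overlap, but the difference was not called (log2 fold change 0.12, interval -0.01 to 0.24, limma adjusted p = 0.176).

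BiP, the most abundant transcript of the set, differed least among the genes called. Hspa5 (chromosome 2 from 34772090 to 34776529, + strand) was at 1068, 1079.6 and 1088 TPM in transgenic libraries and 1136, 1149.9 and 1114 TPM in wild type libraries. The groups did not overlap, and the transgenic mean was 4.83% lower (log2 fold change -0.07 ± 0.0159 SE, limma adjusted p = 0.016). The call was lost without wild type replicate 2, and with no filter on low values, upper-quartile scaling or no variance trend, with an adjusted p of up to 0.257.

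Hyou1, the ER-resident Hsp110-type chaperone that acts as a nucleotide exchange factor for BiP, fell far more. It was at 67.1, 67.9 and 71.0 TPM in transgenic libraries and 97.3, 95.3 and 95.2 TPM in wild type libraries (chromosome 9 from 44379490 to 44392369, + strand). Every transgenic library was thus lower than every wild type library (28.4% lower by means, limma adjusted p = 4.67e-05). Hsp90b1 was at 479.8, 494 and 488 TPM in transgenic and 545, 539 and 546 TPM in wild type libraries, with no overlap (log2 fold change -0.16 ± 0.017 SE, limma adjusted p = 0.000524). Sil1, the other exchange factor for BiP in the list, was at 21.1, 18.9 and 19.2 TPM in transgenic and 20.4, 19.2 and 18.7 TPM in wild type libraries. Its groups overlapped (log2 fold change interval -0.12 to 0.16).

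Hyou1, Dnajb11 and Sdf2l1, which act with or beside BiP, fell by more than BiP, and the ratios of Hspa5 to these genes were taken within each library. The level of Hspa5 over that of Hyou1 was 15.9, 15.9 and 15.3 in transgenic libraries and 11.7, 12.1 and 11.7 in wild type libraries. Hspa5 over Dnajb11 was 11.3, 11.5 and 11.7 in transgenic and 9.85, 9.52 and 9.56 in wild type libraries, and Hspa5 over Sdf2l1 was 6.57, 6.68 and 7.06 in transgenic and 5.40, 5.24 and 4.66 in wild type libraries. In each case BiP transcript was higher relative to its partner in all 3 transgenic libraries than in any wild type library. Since these partners fell by more than BiP, that direction follows from their fold changes and is no separate result. Ratios to Sil1 and Dnajb9, which were not called, were not taken. An exact permutation test of 3 against 3 libraries cannot go below p = 0.10, the smallest p possible here, so these ratios are given as values.

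Of the J-domain co-chaperones, which hand substrates to BiP and stimulate its ATPase, Dnajb11 and Dnajc3 fell and Dnajb9 was not called. Dnajb11 was at 94.2, 94.2 and 93.3 TPM in transgenic libraries and 115, 121 and 117 TPM in wild type libraries. Relative to its mean, it varied less among transgenic libraries than any other gene of the set, and the fall was 20.1% (limma adjusted p = 0.000156). Dnajc3, also called p58IPK, was at 48.9, 46.2 and 45.4 TPM in transgenic and 52.2, 56.6 and 52.7 TPM in wild type libraries (limma adjusted p = 0.018). Its call was lost without transgenic replicate 2, transgenic replicate 3 or wild type replicate 2 and with no variance trend (adjusted p up to 0.0658). Dnajb9, an early target of XBP1, was at 45.1, 44.5 and 45.8 TPM in transgenic and 47.4, 49.4 and 48.4 TPM in wild type libraries, which do not overlap (limma adjusted p = 0.076).

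Sdf2l1, which works with Dnajb11 to keep substrates soluble, fell about as far as Hyou1. It was at 162, 162 and 154 TPM in transgenic libraries and 211, 219 and 239 TPM in wild type libraries (chromosome 16 from 17130138 to 17132383, - strand). All transgenic libraries were lower than all wild type libraries, by 28.5% between means (log2 fold change -0.48 ± 0.046 SE, 95% interval -0.59 to -0.37, limma adjusted p = 0.000283).

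Both lectin chaperones, which hold glycoproteins that carry a trimmed glucose residue, fell. Calreticulin (Calr) was at 760.0, 776 and 750.0 TPM in transgenic libraries and 910.4, 899.7 and 890.5 TPM in wild type libraries (limma adjusted p = 6.78e-05). Calnexin (Canx), its membrane-bound relative, was at 152, 155 and 159.7 TPM in transgenic and 174, 175 and 174 TPM in wild type libraries (limma adjusted p = 0.00285). Neither pair of groups overlapped. The soluble form fell more: Calr over Canx was 4.995, 5.02 and 4.70 in transgenic and 5.25, 5.15 and 5.11 in wild type libraries.

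Of the protein disulfide isomerases, which form and rearrange disulfide bonds, Pdia3, Pdia4, Pdia6 and P4hb fell. Pdia6 was at 196, 204 and 202 TPM in transgenic libraries and 256, 257 and 258 TPM in wild type libraries. This was the lowest adjusted p of the set (log2 fold change -0.36 ± 0.0222 SE, limma adjusted p = 3.2e-05). Pdia4 was at 117, 115 and 115 TPM in transgenic and 143, 152 and 149.6 TPM in wild type libraries (limma adjusted p = 0.000115). P4hb, the founding member of the family, was at 224, 218 and 209.9 TPM in transgenic and 281, 263 and 276 TPM in wild type libraries (limma adjusted p = 0.000345). Each of these genes was at least 20% lower.

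Pdia3, the isomerase that works with calnexin and calreticulin on glycoproteins, fell by less. It was at 359, 378 and 367 TPM in transgenic and 401, 407 and 401 TPM in wild type libraries, 8.61% lower without overlap (limma adjusted p = 0.00501, and 0.0828 with no variance trend). The level of Pdia3 over that of Pdia6 was accordingly 1.84, 1.86 and 1.82 in transgenic libraries and 1.57, 1.58 and 1.55 in wild type libraries. Pdia5, a low-abundance isomerase, lay the other way, at 4.765, 5.135 and 5.30 TPM in transgenic and 3.36, 4.06 and 4.54 TPM in wild type libraries. It rested on 74 to 126 reads per library and was not called (log2 fold change 0.29 ± 0.108 SE, limma adjusted p = 0.0976).

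The genes of ER-associated degradation, which returns misfolded proteins to the cytosol for the proteasome, were mostly not called, with 2 lower, 1 higher and 5 not called. Herpud1, which recruits the degradation complex around the ligase Hrd1, was at 253, 249 and 250.2 TPM in transgenic libraries and 215, 204 and 209 TPM in wild type libraries (chromosome 8 from 94386429 to 94395371, + strand). All transgenic libraries were higher, by 19.8% between means (log2 fold change 0.26 ± 0.0245 SE, 95% interval 0.20 to 0.32, limma adjusted p = 0.000264). Herpud1 over Hspa5 was 0.237, 0.231 and 0.230 in transgenic and 0.189, 0.177 and 0.188 in wild type libraries. Herpud1 over Sel1l, the adaptor of the same ligase complex, was 7.85, 8.18 and 8.27 in transgenic and 6.47, 5.98 and 6.19 in wild type libraries.

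Edem1, a mannosidase-like protein that directs misfolded glycoproteins to degradation, was at 52.7, 56.0 and 58.3 TPM in transgenic and 62.7, 64.7 and 62.2 TPM in wild type libraries (limma adjusted p = 0.021). Derl1, a membrane protein of the retrotranslocation complex, was at 52.6, 49.5 and 46.8 TPM in transgenic and 54.4, 56.5 and 55.6 TPM in wild type libraries (limma adjusted p = 0.0452). Both fell without overlap, but neither call was firm. That of Edem1 was lost without transgenic replicate 2 or wild type replicate 2 and with no variance trend (adjusted p up to 0.0678), and that of Derl1 under 9 of 13 alternatives, among them leaving out any 1 library other than transgenic replicate 1 (adjusted p up to 0.124).

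The other degradation genes were not called. Derl2 was at 16.2, 14.9 and 15.9 TPM in transgenic and 17.9, 16.997 and 18.374 TPM in wild type libraries, and Sel1l at 32.3, 30.5 and 30.2 TPM in transgenic and 33.2, 34.1 and 33.9 TPM in wild type libraries. Neither pair overlapped (limma adjusted p = 0.0641 and 0.08), and both were called with TMM scaling (limma adjusted p = 0.0432 and 0.0249). Syvn1, which encodes the ubiquitin ligase Hrd1, was at 36.2, 34.7 and 32.6 TPM in transgenic and 36.6, 35.9 and 37.3 TPM in wild type libraries. Os9, a lectin that delivers glycoproteins to Hrd1, was at 85.5, 85.6 and 89.0 TPM in transgenic and 86.2, 91.2 and 87.0 TPM in wild type libraries, with overlap in both genes. Derl3 was at 5.61, 3.42 and 5.72 TPM in transgenic and 5.03, 5.51 and 5.56 TPM in wild type libraries, where transgenic replicate 2 held 53 reads, the fewest of any member in any library.

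Both secreted ER stress proteins fell. Manf, a chaperone-like factor that binds BiP and is released from stressed cells, was at 231, 228 and 240.2 TPM in transgenic libraries and 281, 274 and 277 TPM in wild type libraries (limma adjusted p = 0.000368). Creld2, a secreted cysteine-rich protein, was at 59.4, 59.8 and 60.4 TPM in transgenic and 78.9, 82.4 and 80.0 TPM in wild type libraries. Neither pair overlapped, and Creld2 was 25.6% lower (log2 fold change -0.42 ± 0.0302 SE, limma adjusted p = 6.72e-05).

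Of the translocon, the channel through which nascent chains enter the ER, the pore subunit gene Sec61a1 fell to 74.97, 71.1 and 71.9 TPM in transgenic libraries, against 81.9, 82.5 and 79.4 TPM in wild type libraries (limma adjusted p = 0.0113, and 0.0563 with no variance trend). Sec61b, a smaller subunit, was at 79.6, 77.9 and 68.2 TPM in transgenic and 83.9, 80.5 and 78.5 TPM in wild type libraries. It was not called, and its groups overlapped (interval -0.24 to 0.03). Ufm1, the ubiquitin-like modifier attached to ribosomes at the ER, was at 7.005, 7.72 and 7.98 TPM in transgenic and 7.75, 9.36 and 8.495 TPM in wild type libraries, also with overlap (interval -0.35 to 0.05).

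**Figure D3:**
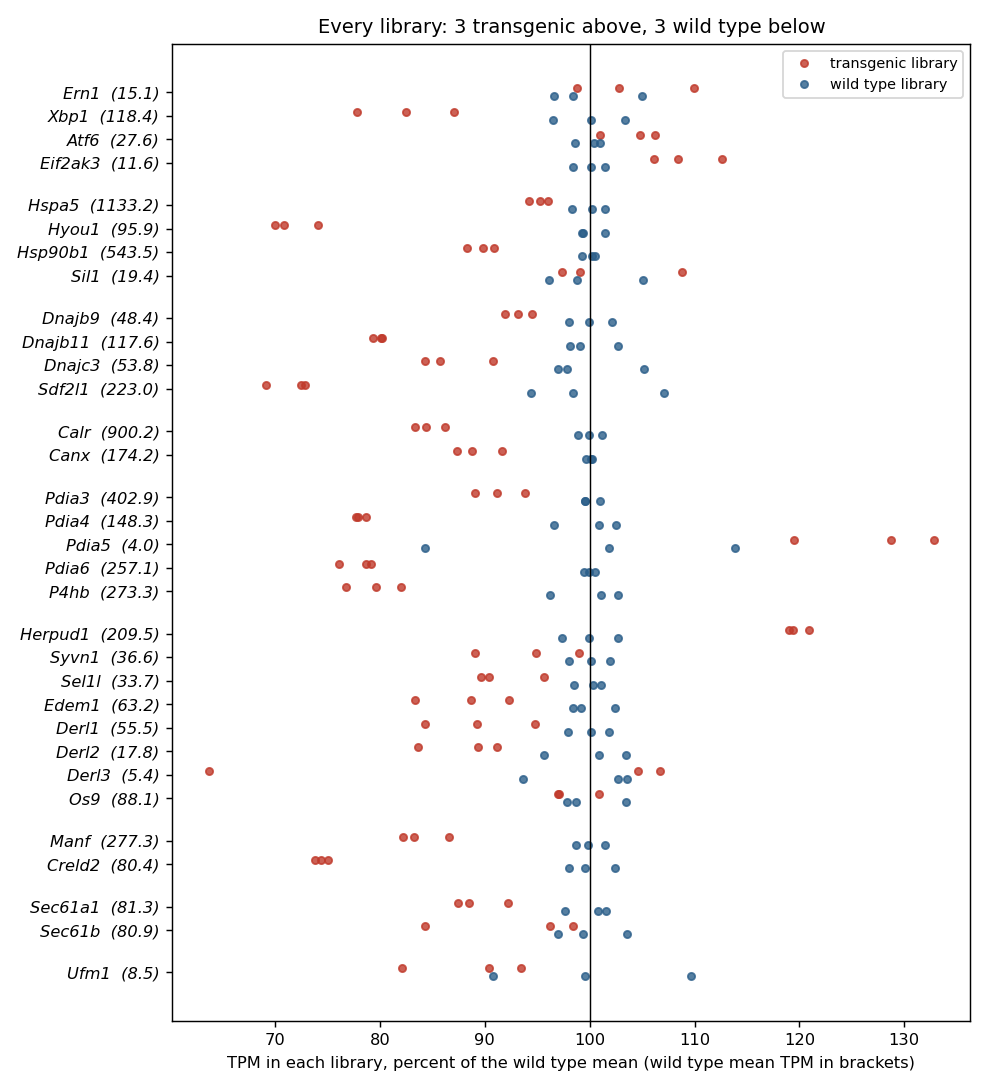
TPM of each gene in every library as a percent of its wild type mean (x axis), with the 3 transgenic libraries drawn above the 3 wild type ones and the wild type mean TPM in brackets. The transgenic points lie wholly left of the wild type points for 21 genes and wholly right for Herpud1, Pdia5 and Eif2ak3.

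Replicates lay close together. The median coefficient of variation of the 32 genes was 2.95% in transgenic and 2.17% in wild type libraries, and it was below 5% for 22 genes in transgenic and 28 in wild type libraries. The largest was 26.5% for Derl3 in transgenic and 14.9% for Pdia5 in wild type libraries. Reads per gene and library ran from 53 for Derl3 to 37117 for Hspa5, and 23 genes had over 1000 reads in every library. Counting error therefore limits Derl3 (53 to 96 reads per library) and Pdia5 (74 to 126) more than the abundant chaperones. Ufm1, like these 2 genes under 10 TPM in every library, held 447 to 582 reads.

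The authors' deposited table of their own comparison counts reads over the whole gene span and gives adjusted p-values of its own. There, in the authors' deposited table, 23 of the 32 genes were lower, 2 higher and 7 not called at adjusted p below 0.05. Beside this, 21.4% were lower and 11.2% higher among the 12097 genes tested here that had an adjusted p there. The 18 genes that fell here were among the 23. Derl2, Dnajb9, Os9, Sel1l and Syvn1 were lower and Pdia5 higher in the authors' deposited table alone, with log2 fold changes of -0.20, -0.14, -0.07, -0.16, -0.15 and 0.46 in that order. Eif2ak3 had a log2 fold change of 0.02 in the authors' deposited table (adjusted p = 0.879).

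Other genes of the ER and of its stress responses were also lower in part. In 7 further lists, 119 of 123 listed genes were tested, of which 38 fell (31.9%) and 7 rose (5.88%), beside the 13.2% and 8.71% of all tested genes given above. Their median log2 fold change was -0.09, against -0.16 for the 32 genes. The difference between these lists and the 32 genes was not tested. Of the 7 that rose, Fkbp14 and Ern2 passed the filter on low values through the transgenic group alone, so their direction was fixed by it.

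N-glycosylation, which attaches and trims the glycans read by calnexin and calreticulin, had 11 of 18 genes lower, 0 higher and a median of -0.17. Dad1, a subunit of oligosaccharyltransferase, was at 119 ± 4.35 TPM in transgenic and 148 ± 3.71 TPM in wild type libraries (SD, n = 3 each; limma adjusted p = 0.000551). Its catalytic subunits Stt3a and Stt3b and the glucosidase Mogs fell as well, with log2 fold changes of -0.26, -0.28 and -0.39. Of 22 genes of translocation and signal peptide cleavage, 7 fell and 0 rose, and the lowest p-values were those of Ssr2, Ssr1, Tram1 and Srprb (log2 fold changes -0.35, -0.18, -0.18 and -0.29).

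Among 24 other foldases, 4 fell and 1 rose, so the share that fell was near the 13.2% of all tested genes. Ero1l, the oxidase that regenerates the disulfide isomerases and a known hypoxia target, was at 9.07, 8.38 and 8.59 TPM in transgenic libraries and 16.2, 15.2 and 17.1 TPM in wild type libraries. At 46.3% lower (limma adjusted p = 0.000104), it differed by more than any of the 32 genes. Calu and Txndc5 also fell (log2 fold changes -0.24 and -0.18), and Fkbp14, a prolyl isomerase at a low level, rose, at 1.51 ± 0.124 TPM in transgenic and 0.841 ± 0.0237 TPM in wild type libraries (SD, n = 3 each; limma adjusted p = 0.0382). Since its wild type mean is below the filter of 1 TPM, Fkbp14 was tested through the transgenic group alone, where it is high, and its count as higher is no support. The Fkbp14 call was lost when any 1 library was left out, and that of Txndc5 without transgenic replicate 2, transgenic replicate 3 or wild type replicate 1 and with no variance trend.

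Of 24 other degradation genes 7 fell and 0 rose, led by Vcp, the ATPase that pulls substrates from the membrane, at 58.5 ± 1.09 TPM in transgenic and 65.1 ± 0.826 TPM in wild type libraries (SD, n = 3 each; limma adjusted p = 0.0102). Selenos, Ube2g2 and Ube2j1 fell by 0.22, 0.23 and 0.23 on the log2 scale. The call of Ube2g2 was lost without wild type replicate 2, and that of Ube2j1 without transgenic replicate 1 or 3. Of 7 ufmylation enzymes, Ufsp2 alone was called (log2 fold change -0.45, limma adjusted p = 0.0271), a share near the 13.2% lower of all tested genes. That call was lost when any 1 library other than wild type replicate 1 was left out, and with no filter or no variance trend.

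The PERK arm did not move one way: of 11 tested genes of the integrated stress response, 4 fell and 3 rose. Atf3, a stress-induced transcription factor, was at 898, 885 and 919.5 TPM in transgenic libraries and 676, 674 and 675 TPM in wild type libraries (log2 fold change 0.42 ± 0.017 SE, limma adjusted p = 3.77e-06). Ppp1r15a, which encodes the Gadd34 phosphatase subunit that reverses PERK's block of translation, was at 216, 216 and 220.3 TPM in transgenic and 175, 175 and 171 TPM in wild type libraries (limma adjusted p = 4.64e-05). Ddit3, which encodes CHOP and was named after its value was seen, was at 46.4, 50.4 and 48.2 TPM in transgenic and 35.8, 36.3 and 41.0 TPM in wild type libraries (limma adjusted p = 0.0045). Like Herpud1, these genes were higher in transgenic libraries, where most chaperones were lower.

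Cebpb, a transcription factor of inflammatory macrophages, and Nupr1, a stress-induced chromatin protein, fell, with log2 fold changes of -0.73 and -0.41. Atf4, the factor between PERK and Ddit3, which was named after its value was seen, was at 167 ± 5.69 TPM in transgenic and 174 ± 0.635 TPM in wild type libraries (SD, n = 3 each) and was not called (limma adjusted p = 0.182). Of 13 other ER stress regulators, 4 fell and 3 rose. Ptpn1, Atf6b and Bcap31 fell, with log2 fold changes of -0.30, -0.28 and -0.19. Creb3l1, a membrane-bound factor related to ATF6, was at 11.1, 11.8 and 12.5 TPM in transgenic and 8.29, 7.79 and 7.13 TPM in wild type libraries (limma adjusted p = 0.00182). Ern2, the IRE1 of mucus-producing epithelium, named after its value was seen, was at 1.83, 1.92 and 2.16 TPM in transgenic and 0.577, 0.898 and 0.781 TPM in wild type libraries and, like Fkbp14, passed the filter through the transgenic group alone.

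**Figure D4:**
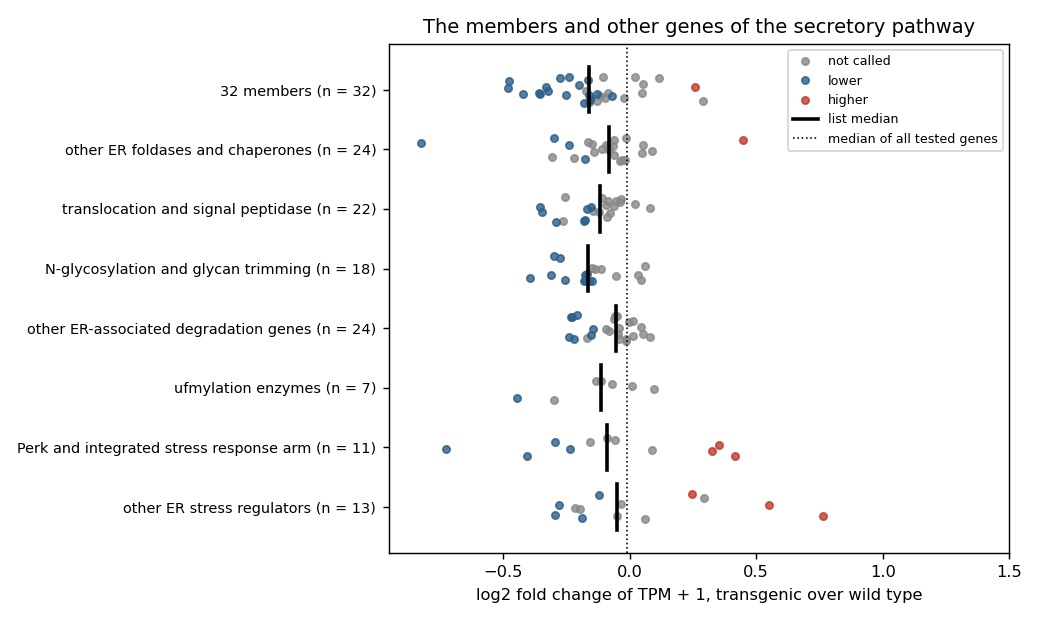
Log2 fold change of TPM + 1 (transgenic over wild type, x axis) of every tested gene in the 32-gene set and 7 further lists, with points coloured by the limma call, a bar at each list's median and a dotted line at the median of all tested genes. Medians run from -0.17 for N-glycosylation to -0.05, and higher calls sit mainly in the stress regulator lists.

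The sorted cells held macrophage markers at high levels in both groups and markers of other cells at lower levels, some of which moved with the ER genes. Of 12 macrophage markers, 4 were higher and 5 lower (limma), with a summed level of 18185 to 18273 TPM in transgenic and 18503 to 18688 TPM in wild type libraries. Lyz2, the macrophage lysozyme, was at 5945 ± 38.9 TPM in transgenic and 6669.6 ± 40.7 TPM in wild type libraries, and the complement gene C1qa at 3418 ± 44.3 TPM in transgenic and 3232 ± 20.6 TPM in wild type libraries (SD, n = 3 each). C1qb (2897 TPM in transgenic, 2889 TPM in wild type libraries) and C1qc (2773 TPM in transgenic, 2734 TPM in wild type libraries) were not called. The lower sum of the macrophage markers rests on Lyz2, whose mean differed by more than the sum did.

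Several lists of other cells were lower in transgenic libraries, in the direction of the chaperones. Neutrophil markers had 8 of 11 tested genes lower and 0 higher, and summed to 516 to 571 TPM in transgenic and 1202 to 1237 TPM in wild type libraries, with S100a9, S100a8, Mmp9 and Retnlg the most abundant. Colon epithelial and goblet cell markers had 11 of 18 lower and 3 higher, and summed to 897 to 906 TPM in transgenic and 1308 to 1319 TPM in wild type libraries, with Car1, Krt19, Lgals4 and Krt8 the most abundant. These abundant genes were lower, but the list did not move one way. In the authors' deposited table, Spink4 and Agr2 had log2 fold changes of 1.03 and 0.60. Muc2 lay at -0.03 there, and Zg16 and Fcgbp at -0.32 and -0.34. In neither list did the summed levels of the groups overlap. Fibroblast and smooth muscle markers (5 of 12 lower, 0 higher; most abundant Col3a1, Dcn, Col1a1 and Col1a2) summed to 138 to 141 TPM in transgenic and 181 to 184 TPM in wild type libraries. Endothelial markers (6 of 9 lower, 0 higher; most abundant Pecam1, Plvap, Cdh5 and Esam) summed to 34.6 to 39.0 TPM in transgenic and 55.2 to 58.6 TPM in wild type libraries.

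Other lists were higher in transgenic libraries, in the direction of Herpud1. Markers of pancreatic acinar cells, which are rich in ER, had 12 tested of 19 listed genes, all 12 higher, of which 9 passed the filter through the transgenic group alone. The 19 listed summed to 105 to 113 TPM in transgenic and 30.1 to 40.4 TPM in wild type libraries. Their most abundant members were Cela1, Spink1, Sycn and Ctrb1, where Ctrb1 was listed at 0 in every wild type library, and Amy2a5 was at 0 in all 6 libraries. Dendritic cell markers had 5 of 10 tested genes higher and 1 lower. The list summed to 302 to 311 TPM in transgenic and 244 to 257 TPM in wild type libraries. Of its most abundant genes, Bst2 and Batf3 were higher, while Ccr7 and Cd209a were not called and Ccr7 had a lower transgenic mean. T cell, NK cell and ILC markers had 5 of 11 higher and 0 lower. That list summed to 148 to 156 TPM in transgenic and 129 to 138 TPM in wild type libraries. Of its most abundant genes, Gzmb was higher, while Cd4, Thy1 and Cd3g were not called. Cd4, the largest part of that sum, was at 89.6 TPM in transgenic and 87.4 TPM in wild type libraries.

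Plasma cells are also rich in ER. Of the plasma cell and B cell list, 1 of 13 markers was higher and 1 lower. Jchain, the joining chain of secreted antibody, was at 204 ± 8.77 TPM in transgenic and 165 ± 2.28 TPM in wild type libraries (SD, n = 3 each), and the list summed to 351 to 365 TPM in transgenic and 332 to 344 TPM in wild type libraries. The marker that was lower was Sdc1 (10.9 TPM in transgenic, 29.1 TPM in wild type libraries), while Prdm1, Tnfrsf13b and Cd79b were not called. Mast cell markers (1 of 4 higher, 1 lower) summed to 30.5 to 32.7 TPM in transgenic and 35.1 to 38.9 TPM in wild type libraries. Hdc was lower (15.6 TPM in transgenic, 28.6 TPM in wild type libraries) and Mcpt1 higher (10.1 TPM in transgenic, 3.81 TPM in wild type libraries). Mcpt2 and Kit, also with higher transgenic means, were not called, so the lower sum rests on Hdc. Other called markers also passed the filter through the group where they are high: 2 dendritic cell markers and 1 T cell, NK cell and ILC marker through the transgenic group, and 3 endothelial markers and 1 fibroblast and smooth muscle marker through the wild type group. The part of each of these cell types in the differences of the ER genes was not tested.

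**Figure D5:**
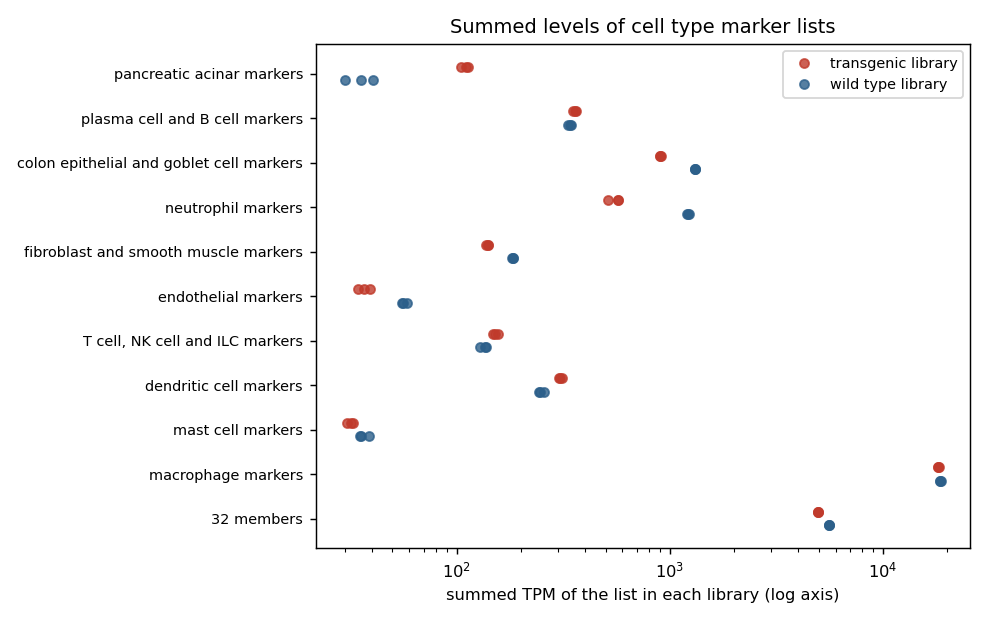
Summed TPM of each cell type marker list and of the 32 ER genes in every library (x axis, log scale), with the 3 transgenic libraries above the 3 wild type ones. The ER genes sum to 4941 to 4982 TPM in transgenic and 5585 to 5617 TPM in wild type libraries, and macrophage markers exceed every other marker list.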

How the data were processed

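RNA was measured in 3 transgenic and 3 wild type libraries of sorted colon macrophages. Per the labels' protocols, libraries started from 20 ng of total RNA with poly(A) selection, and the kit is not described as keeping strand, so reads of overlapping genes may not be told apart. Per the submitters' processing notes, bcl2fastq, STAR, HOMER 4.11.1 and DESeq2 were used with the mm10 build. The deposited expression table gives, per the file headers, TPM for 25124 gene rows, each 1 RefSeq transcript. The authors' comparison table, also deposited, gives log2 fold changes, p-values and adjusted p-values over the gene span. Its sign, transgenic over wild type, was checked on the TPM.

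The members and all lists were chosen with earlier results of these data known. Genes were tested with limma 3.58.1 in R 4.3.3 (limma-trend, values log2(TPM + 1), 1 term for genotype, 6 libraries, a mean of at least 1 TPM in either group, Benjamini-Hochberg over 12633 genes). Fold changes on this scale understate those of low genes. The fit was tested on simulated data drawn with counting error alone and no other spread between libraries. It recovered 4 of 50 genes changed 1.1-fold and 34 of 50 changed 1.25-fold, with 7 false calls among 135 calls. TPM times transcript length fell on whole multiples of 1 step for 100% of the low values checked per library (tolerance 0.1 reads), which gave 13.97 M to 15.06 M (1e6) reads in genes, 79.5% to 81.3% of the reads the file headers state. These reads served for depth and TMM scaling. A count of 0 allows up to 3 reads, or 0.113 to 0.122 TPM for a transcript of 2000 bases, for counting error only.

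Named genes were the 32 members, Nfil3, up to 4 genes with the lowest p from each further pathway list and the 4 most abundant from each marker list. Ddit3, Ern2, Atf4 and Sdc1 were named after their values were seen. Spink4, Agr2, Muc2, Zg16 and Fcgbp, of the colon epithelial and goblet cell list, were also named outside this rule, with values from the authors' deposited table alone. Promoter windows were matched by symbol and searched on both strands, and the sequences are from RefSeq (GRCm38.p6). Alternatives covered the pseudocount (0.1), the filter (none, 5 TPM), upper-quartile and TMM scaling, no variance trend, each library left out and a replicate block. Figures were drawn with matplotlib 3.10.9. Replicate numbers were not taken as a pairing of the libraries.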

Additional observations from a re-analysis of the deposited data

How the results depend on the processing

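Over the 13 alternatives the members lower numbered 12 (no variance trend) to 20 (TMM scaling), against 18, and Herpud1 was the 1 member higher under each. Without 1 library they numbered 14 (without wild type replicate 2) to 18. Upper-quartile scaling and no filter gave 16 each. Over all genes, those lower numbered 1277 with no variance trend and 1936 with TMM scaling, against 1666. With upper-quartile scaling and with no filter, the genes lower numbered 1315 and 1451. The median log2 fold change of the members was -0.12 with upper-quartile scaling and -0.15 with TMM scaling, against -0.16, and lay at -0.17 to -0.15 with 1 library left out. These scalings shifted the median of all genes by 0.03 and 0.02. Of 416 fits of a member, 392 kept the side of the threshold, 22 lost the call and 2 gained it. The sign changed in 5 fits, all of genes not called (Derl3, Os9 and Sil1). Of the 19 members called, 13 were called under every alternative, and Hspa5, Dnajc3, Pdia3, Edem1, Derl1 and Sec61a1 lost the call under at least 1. Of 57 other named genes called, 8 lost it under at least 1. Over all genes, TMM scaling gave 1762 higher, against 1100, and leaving out 1 library gave 704 (without transgenic replicate 2), 721 (without transgenic replicate 3) to 883 higher and 1231 to 1373 lower, against 1666. The cause was not tested.

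With the replicate number as a block there were 922 genes higher and 1457 lower, and 17 members lower, Derl1 being lost. Same-numbered libraries correlated in their deviations by -0.01, -0.04 and 0.03, and not every library correlated best with its own number, so the numbers were not taken as a pairing.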
